A study of Homo sapiens with 4 samples.

Results

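The genes described here were 9 genes of ammonia disposal in the liver, namely the urea cycle genes CPS1, OTC, ASS1, ASL, ARG1, ARG2 and NAGS and the glutamine genes GLUL and GLS2. They were selected by symbol from read counts per gene in 4 human hepatoma cultures. These genes and the gene lists used below were chosen with earlier results of these data known. Shares and medians over all genes are therefore given for description, not as a test of the set. Of 16370 genes listed in either pair of cultures, 9 were members. All 9 were among the 15480 genes of the Hep3B pair, and 8 were among the 14807 genes of the Huh7 pair, where GLS2 was not listed.

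Hepatocellular carcinoma cells (HCC) were the established hepatoma lines Hep3B and Huh7. Hepatic cancer stem cells (HCSC) were Hep3B-C and Huh7-C, stem-like cultures grown from those lines. The labels gave no treatment, genotype or age for any culture, and the culture conditions of the HCSC lines are not given in the sources used here. Each cell line was represented by 1 library, titled as mRNA, so within a pair the group cannot be told apart from the culture or the library. As these were bulk samples, fewer cells of a type and less RNA per cell cannot be told apart either.

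In liver, ammonia enters the urea cycle through carbamoyl phosphate synthetase (CPS1) in mitochondria, which needs N-acetylglutamate made by NAGS. Ornithine transcarbamylase (OTC) makes citrulline, argininosuccinate synthetase (ASS1) and lyase (ASL) convert it to arginine in the cytosol, and arginase releases urea and returns ornithine. Periportal hepatocytes are known for the urea cycle, whereas pericentral hepatocytes take up remaining ammonia with glutamine synthetase (GLUL). The liver glutaminase GLS2 releases ammonia from glutamine.

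Total gene counts ranged from 2896418 in Hep3B to 4641927 in Hep3B-C, and a gene with 3 counts stood at 0.646 to 1.04 CPM (counts scaled to the total gene count of the library). All 8 hepatocyte markers examined, among them ALB and APOA1, had at least 10 counts in each library, with summed levels of 26489 to 62363 CPM. SERPINA1 made up most of the sum in both Huh7 cultures, at 40517 CPM in Huh7 and 17284 CPM in Huh7-C. ALB stood at 106 and 267 CPM there, against 19541 and 18469 CPM in Hep3B and Hep3B-C. AFP, with 26 and 12 counts, and TTR, with 13 counts in each, were low in the Huh7 cultures. Summed markers of bile duct cells ranged from 60.4 to 281 CPM, of fibroblasts and stellate cells from 10.8 to 45.2 CPM, of blood cells from 100.1 to 271 CPM and of endothelium from 2.8 to 21.5 CPM. Within the blood list, PTPRC, CD3E and HBB were at 0 in all 4 libraries, and CD68 made up nearly all of the sum. CD68 rose from 99.8 CPM in Hep3B to 270 CPM in its stem-like culture, and was called up there (log2 fold-change 1.44). With trends of GC content and length removed, that value was 0.30 and uncalled. The Huh7 parental culture had 134 CPM of CD68 and its stem-like culture 99.9 CPM, which was not called (-0.43).

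Sequences upstream of 5 genes are shown because CPS1, ASS1 and ASL were called up together in Hep3B-C while ARG1 and ARG2 were called down. They are the 250 bases before the RefSeq start on the plus strand of GRCh38.p14, with CPS1 at chr2:210593105-210593354, ASS1 at chr9:130444457-130444706, ASL at chr7:66075569-66075818, ARG1 at chr6:131572976-131573225 and ARG2 at chr14:67619670-67619919. The libraries were aligned to an older build, and which start the cultures used is not known. Capitals mark matches on either strand to a TATA box, spelled TATAAA, to a box spelled CCAAT, to a GC box, spelled GGGCGG, to a cAMP response element, spelled TGACGTCA, or to the shorter form TGACG that lies within it.
CPS1: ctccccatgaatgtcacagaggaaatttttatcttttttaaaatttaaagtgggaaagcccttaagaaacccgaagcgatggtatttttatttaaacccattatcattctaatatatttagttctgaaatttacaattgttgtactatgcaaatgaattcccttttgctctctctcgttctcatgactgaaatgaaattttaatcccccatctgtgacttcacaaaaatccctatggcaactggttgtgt
ASS1: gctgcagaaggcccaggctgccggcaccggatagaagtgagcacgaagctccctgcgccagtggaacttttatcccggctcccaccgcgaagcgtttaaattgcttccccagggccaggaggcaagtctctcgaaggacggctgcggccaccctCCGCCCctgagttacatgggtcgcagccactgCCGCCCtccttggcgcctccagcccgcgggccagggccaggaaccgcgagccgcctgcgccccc
ASL: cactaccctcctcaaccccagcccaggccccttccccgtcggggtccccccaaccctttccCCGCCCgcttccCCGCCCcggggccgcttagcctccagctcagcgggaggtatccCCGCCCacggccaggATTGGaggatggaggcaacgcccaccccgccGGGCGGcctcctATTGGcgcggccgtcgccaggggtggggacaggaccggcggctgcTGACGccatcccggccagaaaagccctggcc
ARG1: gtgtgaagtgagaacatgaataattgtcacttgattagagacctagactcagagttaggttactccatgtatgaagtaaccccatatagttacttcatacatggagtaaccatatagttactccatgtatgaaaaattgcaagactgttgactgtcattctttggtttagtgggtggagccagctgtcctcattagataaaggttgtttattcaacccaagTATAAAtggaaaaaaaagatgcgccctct
ARG2: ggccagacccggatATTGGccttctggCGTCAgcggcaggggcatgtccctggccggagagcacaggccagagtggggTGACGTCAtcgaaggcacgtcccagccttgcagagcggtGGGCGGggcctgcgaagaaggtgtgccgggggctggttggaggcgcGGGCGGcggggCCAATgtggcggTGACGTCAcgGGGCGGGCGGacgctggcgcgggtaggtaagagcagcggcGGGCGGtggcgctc

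Motifs were counted over windows of 300 bases, from 250 before to 50 after the start, in all 9 members and in 35116 RefSeq promoters. A GC box was found in 6 of 9 members and in 45% of all promoters. No motif searched was found in the CPS1 window, which had a GC content of 36.7% against a median of 58.7% over all promoters. ARG1 held a TATA box at position -29 from its start and OTC at -192, while 11.5% of all promoters had a match. ARG2 held 2 full cAMP response elements, at -172 and -64, an element present in 1.85% of promoters. The C/EBP motif TTGCNNAA was in 10.5% of all promoters, the nuclear receptor motif AGGTCA in 13.8%, the FOXA motif TGTTTAC in 3.42% and the E-box CACGTG in 7.26%, and none of these was found in the 9 windows. These matches describe the letters of each window and are not evidence of binding.

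Levels of the members differed between the parental lines as well as between the groups. CPS1 was among the more abundant transcripts of Huh7, Huh7-C and Hep3B-C but not of Hep3B. OTC, NAGS and GLS2 were close to the limit of detection in most libraries. A count of at least 10 was reached by 6 members in Hep3B, by all 9 in Hep3B-C and by 5 in either Huh7 culture.

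**Figure D1:**
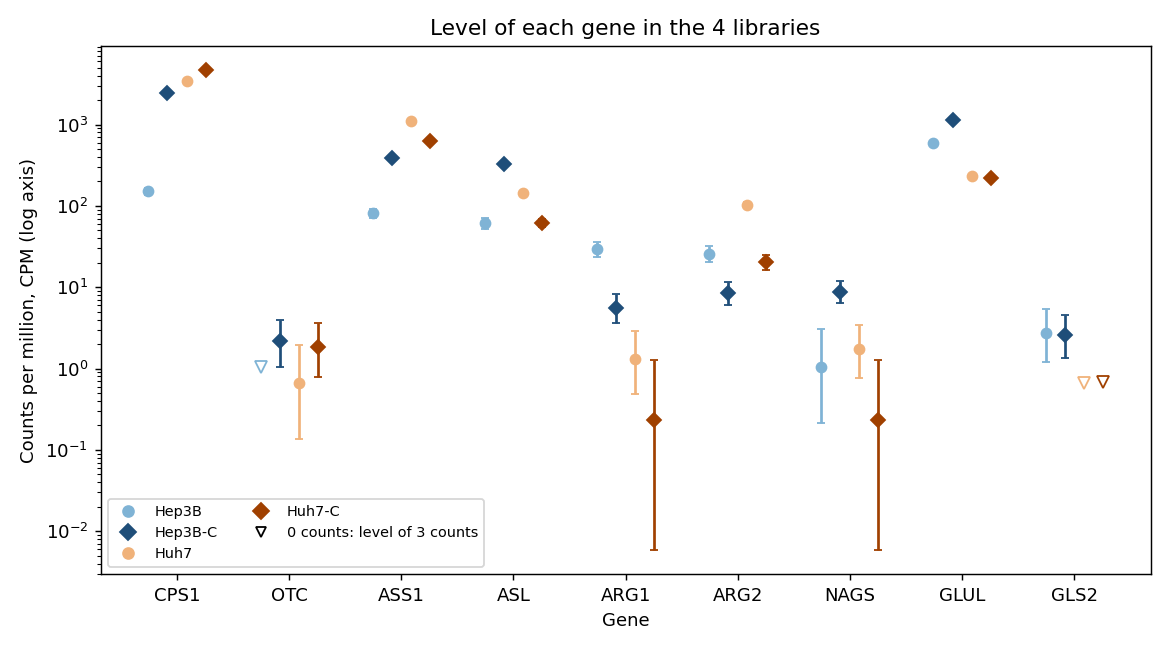
Level of each member in the 4 libraries, in CPM on a log axis, with 95% Poisson intervals that cover counting error only. Open triangles mark a count of 0, drawn at the level of 3 counts. CPM is not scaled for gene length, so heights compare libraries within a gene. CPS1 was lowest in Hep3B at 152 CPM and highest in Huh7-C at 4634 CPM.

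Each HCSC line was set against its own parental line to find altered members. In Hep3B-C, 4 of 9 members were up-regulated (CPS1, ASS1, ASL and NAGS), 2 were down-regulated (ARG1 and ARG2) and 3 were not called. Among all 15480 genes of that pair, 13.2% were called up and 30.4% were called down. In Huh7-C, none of the 8 listed members was up-regulated and 2 were down-regulated (ASL and ARG2), against 4.19% of all 14807 genes called up and 4.15% called down. A gene was called at an FDR of at most 0.01 in the Audic-Claverie test of a pair of counts and an absolute log2 fold-change (HCSC/HCC) of at least 1. This test compares 2 libraries and covers sampling noise only, and no call had a replicate check. When a biological coefficient of variation (BCV, the spread between replicates) of 0.4 was assumed, CPS1 in the Hep3B pair was the only member still called.

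The median log2 fold-change of the 9 members in the Hep3B pair was 2.25, against -0.58 over all genes with at least 10 counts. For the Huh7 pair the median of the 5 members with at least 10 counts was -0.81, against 0.06 over all such genes. The 2 pairs share no library.

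**Figure D2:**
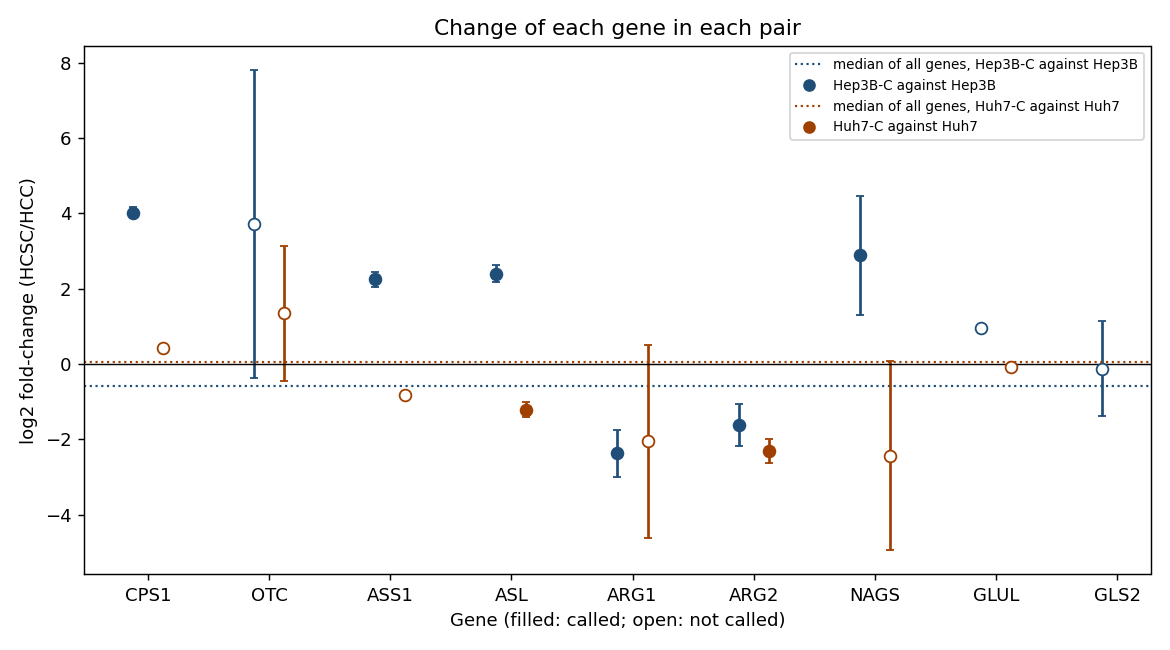
Log2 fold-change (HCSC/HCC) of each member in the Hep3B pair (blue) and the Huh7 pair (brown), with approximate 95% intervals from the counting SE. For low counts, such as those of OTC, they differ from the exact limits in the text. Filled points were called, open points were not, and dotted lines mark, for each pair, the all-gene median (minimum of 10 counts). ASL was the one member called in opposite directions, at 2.40 and -1.21.

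CPS1, the entry enzyme of the cycle, was up-regulated 16.2-fold in Hep3B-C (95% counting interval 14.8 to 17.9). It had 439 counts in Hep3B against 11422 in Hep3B-C, and 15785 in Huh7 against 20082 in Huh7-C, or 152, 2461, 3479 and 4634 CPM. Hep3B was thus far below the other 3 cultures, and no neighbouring levels had overlapping intervals. Scaled for gene length, CPS1 ranked 2685th by RPKM (counts scaled to gene length as well as to the library total) in Hep3B against 160th in Hep3B-C, and 129th in Huh7 against 92nd in Huh7-C. Its log2 fold-change was 4.02 (SE 0.07) in the Hep3B pair, above that of 99.2% of genes with at least 10 counts in a library of the pair. In Huh7-C, CPS1 was 1.33-fold higher than in Huh7 (1.30 to 1.36), past the FDR limit (8e-159 by the Audic-Claverie test) but under the fold limit, and it was not called. The parental lines differed 23.0-fold in CPS1, with Huh7 the higher, and the HCSC lines 1.88-fold in the same direction.

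NAGS, which makes the activator of CPS1, was rare in every library. It had 3 counts in Hep3B against 41 in Hep3B-C, and 8 in Huh7 against 1 in Huh7-C, or 1.04, 8.83, 1.76 and 0.231 CPM. Hep3B-C was the only culture whose interval did not overlap those of the others. NAGS was called up in Hep3B-C at a log2 fold-change of 2.89 (SE 0.80, FDR 9.4e-06 by the Audic-Claverie test). The ratio without added counts was 8.53-fold, with a wide counting interval of 2.72 to 43.0. NAGS was not called in the Huh7 pair, at -2.44 (SE 1.28, FDR 0.071 by the same test).

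OTC, which joins carbamoyl phosphate to ornithine, was rare in all 4 libraries. It had 0 counts in Hep3B against 10 in Hep3B-C, and 3 in Huh7 against 8 in Huh7-C, which puts the 3-count limit of Hep3B at 1.04 CPM and gives 2.15, 0.661 and 1.85 CPM in the others. The intervals of neighbouring levels overlapped throughout. With Hep3B set at its 3-count limit, the level in Hep3B-C was at least 2.08-fold higher. The exact counting interval of the ratio, which also covers the error of the 10 counts, began at 1.40, and the FDR of 0.026 in the Audic-Claverie test missed the limit. Between Huh7 and Huh7-C the ratio was 2.79 with an interval of 0.67 to 16.3, and no difference was detectable at this depth. Where OTC was detected, CPS1 exceeded it 327-fold in Hep3B-C, 1504-fold in Huh7 and 718-fold in Huh7-C by RPKM.

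The cytosolic enzymes ASS1 and ASL had log2 fold-changes of opposite sign in the 2 pairs. ASS1 had 236 counts in Hep3B against 1804 in Hep3B-C, and 5025 in Huh7 against 2731 in Huh7-C, or 81.5, 389, 1107 and 630.2 CPM. Hep3B was the lowest, both Huh7 cultures were the highest, and no neighbouring intervals overlapped. ASS1 was up-regulated 4.77-fold in Hep3B-C (4.16 to 5.49), a log2 fold-change of 2.25 (SE 0.10). Its log2 fold-change in the Huh7 pair was -0.81 (SE 0.03, FDR 2e-127 by the Audic-Claverie test), a level 1.76-fold lower in Huh7-C that did not reach the fold limit. The annotation (GENCODE 29) holds 11 ASS1 pseudogenes, and how reads with several matches were assigned is not given in the sources used here, so the ASS1 counts are uncertain to that extent.

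ASL, which releases arginine from argininosuccinate, had 178 counts in Hep3B against 1512 in Hep3B-C, and 649 in Huh7 against 268 in Huh7-C. The corresponding levels were 61.5, 326, 143 and 61.8 CPM. Hep3B-C was thus the highest culture, and Hep3B and Huh7-C were indistinguishable. ASL was up-regulated 5.30-fold in Hep3B-C (4.54 to 6.23) with a log2 fold-change of 2.40 (SE 0.11). It was down-regulated 2.31-fold in Huh7-C (2.00 to 2.68) with a log2 fold-change of -1.21 (SE 0.10, FDR 4.6e-32 by the Audic-Claverie test). Among 7728 genes with at least 50 counts in a library of each pair, those nearest to ASL in the 2 log2 fold-changes were RGS14 (2.51 and -1.01), C12orf34 (2.21 and -1.32) and SARDH (2.40 and -1.46).

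The log2 fold-changes of the 2 pairs differed by 3.61 for ASL (counting SE 0.15), 3.61 for CPS1 (0.07), 3.06 for ASS1 (0.11), 5.32 for NAGS (1.51) and 1.04 for GLUL (0.08), each higher in the Hep3B pair. These errors cover counting only, and with 1 library per culture the differences could not be tested against variation between cultures.

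Both arginases, which split arginine into urea and ornithine, were down-regulated in Hep3B-C. ARG1, the cytosolic liver form, had 85 counts in Hep3B against 26 in Hep3B-C, and 6 in Huh7 against 1 in Huh7-C, or 29.3, 5.60, 1.32 and 0.231 CPM. It was therefore higher in the Hep3B cultures than in the Huh7 cultures, with a 22.2-fold difference between the parental lines. ARG1 was 5.24-fold lower in Hep3B-C than in Hep3B (3.34 to 8.47), a log2 fold-change of -2.37 (SE 0.32, FDR 1.3e-15 by the Audic-Claverie test). ARG1 was not called in the Huh7 pair, where the log2 fold-change was -2.05 (SE 1.31, FDR 0.18 by the same test), and the intervals of 1.32 and 0.231 CPM overlapped.

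ARG2, the mitochondrial form found in many tissues, was the only member called in the same direction in both pairs. It had 75 counts in Hep3B against 39 in Hep3B-C, and 464 in Huh7 against 89 in Huh7-C, or 25.9, 8.40, 102 and 20.5 CPM. Huh7 stood above the other 3 cultures, and Hep3B and Huh7-C had overlapping intervals. ARG2 was 3.08-fold lower in Hep3B-C (2.07 to 4.66), a log2 fold-change of -1.62 (SE 0.28, FDR 1.1e-08 by the Audic-Claverie test). It was 4.98-fold lower in Huh7-C (3.96 to 6.32), a log2 fold-change of -2.31 (SE 0.17, FDR 7.5e-57 by the same test). In that pair 1.43% of genes with at least 10 counts in a library had a lower value. The Hep3B pair call was lost with DESeq2 size factors, at -0.93. The genes nearest to ARG2 in the 2 log2 fold-changes were CYFIP2 (-1.59 and -2.10), NCRNA00261 (-1.83 and -1.99) and IL1R1 (-1.59 and -2.71).

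The balance of the arginases separated the lineages. By RPKM the ratio of ARG2 to ARG1 was 0.645 in Hep3B and 1.10 in Hep3B-C, against 56.5 in Huh7 and 65.0 in Huh7-C, where ARG1 had 6 counts and 1 count.

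Summed over the 7 urea cycle genes, levels were 351 CPM in Hep3B against 3200 in Hep3B-C, and 4835 in Huh7 against 5349 in Huh7-C. CPS1 supplied 43.2%, 76.9%, 71.9% and 86.6% of these counts. Without CPS1 the sums were 199, 739, 1356 and 715 CPM, so that the sums of Hep3B-C and Huh7-C stood close together. Their parts differed, with ASS1 at 389 and ASL at 326 CPM in Hep3B-C against 630 and 61.8 CPM in Huh7-C. By RPKM, the ratio of CPS1 to ASL was 0.883 in Hep3B against 2.70 in Hep3B-C, and 8.70 in Huh7 against 26.8 in Huh7-C, and the ratio of CPS1 to ASS1 was 0.597, 2.03, 1.01 and 2.36. Both ratios were higher in each HCSC line than in its parental line.

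Glutamine synthetase, GLUL, was well expressed in all 4 cultures and higher in the Hep3B lineage. It had 1708 counts in Hep3B against 5298 in Hep3B-C, and 1070 in Huh7 against 960 in Huh7-C, or 590, 1141, 236 and 222 CPM. The Huh7 cultures did not differ beyond their intervals. GLUL was 1.94-fold higher in Hep3B-C than in Hep3B (1.83 to 2.05), a log2 fold-change of 0.95 (SE 0.04, FDR 1.1e-135 by the Audic-Claverie test) just under the fold limit. It was called up with TMM library sizes, at 1.55, but not with trends of GC content and length removed, at 0.63. The Huh7 pair gave a log2 fold-change of -0.09 (SE 0.06, FDR 0.31 by the Audic-Claverie test). GLUL has 4 pseudogenes in the annotation.

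GLS2, the liver glutaminase, had 8 counts in Hep3B and 12 in Hep3B-C (2.76 and 2.59 CPM) and was listed in neither Huh7 culture, where the 3-count limit was 0.661 and 0.692 CPM. Its log2 fold-change in the Hep3B pair was -0.12 (SE 0.64, FDR 0.89 by the Audic-Claverie test), with a ratio between 0.35 and 2.64.

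In the Hep3B pair the fold-changes of all genes rose with GC content, and this bears on several members. The median log2 fold-change was -1.72 in the tenth of genes with the lowest GC content and 1.12 in the tenth with the highest, whereas in the Huh7 pair the same medians were 0.15 and 0.03. ASS1, ASL and NAGS are GC-rich (57.4%, 59.4% and 63.4%), and CPS1, OTC and ARG1 are not (44.0%, 41.1% and 42.2%). With the trends of GC content and length removed, ASS1 in Hep3B-C stood at 0.91 and NAGS at 1.28, and neither was called. ASL, at 1.01, ARG1, at -2.12, ARG2, at -1.58, and CPS1, at 5.17, kept their calls. When the median of all genes was also set to 0, an alternative chosen after seeing the data, ASS1 (1.38) and ASL (1.48) were called up, NAGS (1.75) was not, and GLUL (1.10) and OTC (4.60) were called up.

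**Figure D3:**
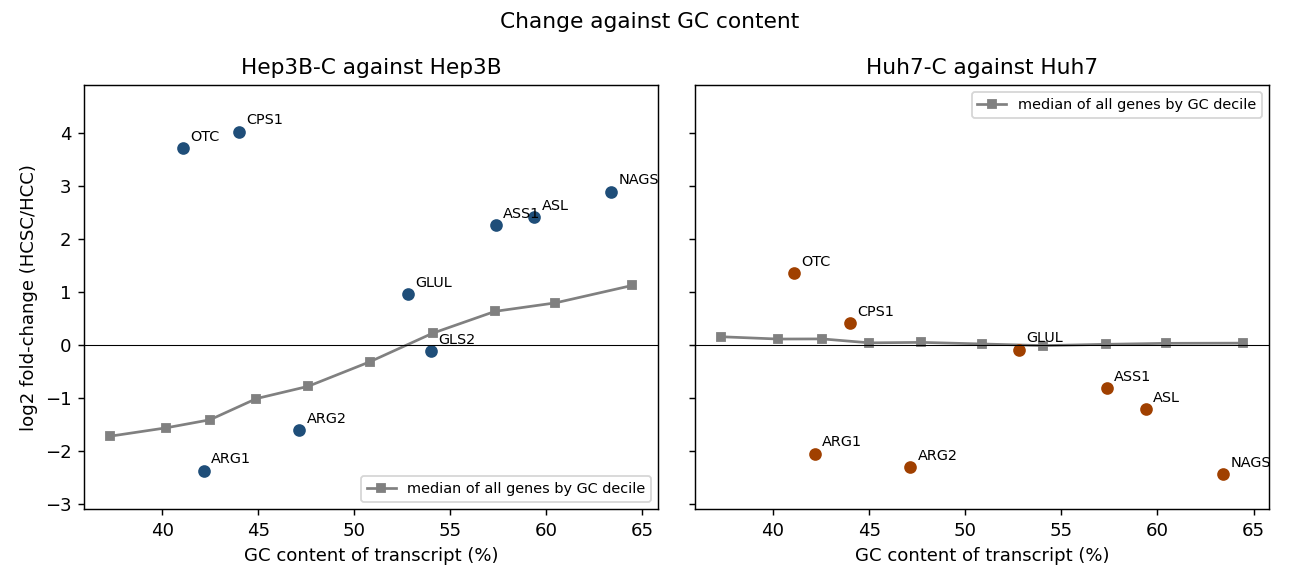
Log2 fold-change (HCSC/HCC) of each member against the GC content of its transcript in each pair, with the median of all genes by GC decile in grey. The grey line climbs from -1.72 to 1.12 in the Hep3B pair and stays between -0.02 and 0.15 in the Huh7 pair, while CPS1 lies at 4.02 in the Hep3B pair, far above genes of like GC content.

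The choice of library size also moved the Hep3B pair. TMM, which takes most genes as unchanged, raised each log2 fold-change by 0.60, and with it the median of genes with at least 10 counts to 0.02. With TMM, 6 of 9 members were called up (OTC and GLUL in addition) and ARG1 and ARG2 remained called down, at -1.77 and -1.02. In the Huh7 pair TMM lowered each value by 0.04 and changed no call of a member.

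**Figure D4:**
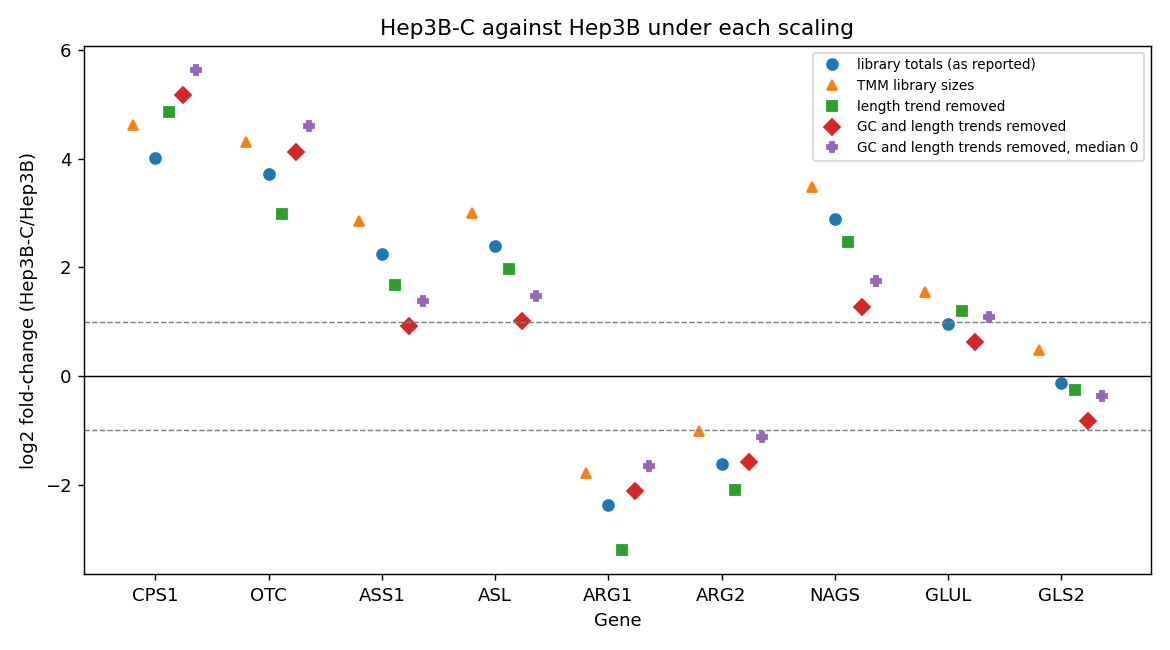
Log2 fold-change (Hep3B-C/Hep3B) of each member with library totals, as reported in the text above, and under 4 other scalings. Dashed lines mark the fold limit of 1 and -1. CPS1 ranges from 4.02 to 5.63, whereas ASS1 ranges from 0.91 to 2.85 and GLS2 changes sign.

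Over both parental lines, HCSC and HCC were compared with edgeR blocked on parental line, leaving 1 degree of freedom for the residual. Of 11691 genes tested, 0.0342% were called up and 0.0428% down at an FDR of at most 0.05. None of the 7 members tested was called by edgeR, and none by DESeq2 (OTC and NAGS were too low for the edgeR fit), with edgeR adjusted p-values of 0.999. At an unadjusted edgeR p under 0.05 there were 3 members, against 3.18% of all genes. These were CPS1, with a joint log2 fold-change of 2.38, ARG2, with -1.81, and ARG1, with -2.11. The CPS1 value joins 2 unequal pairs, at 4.41 in the Hep3B pair alone and 0.36 in the Huh7 pair alone, both on the TMM scale of that fit.

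Genes that supply or use the same metabolites were examined as lists. The Hep3B pair had 21 up and 9 down calls among 60 such genes (31 up and 3 down with TMM), and the Huh7 pair had 6 up and 3 down among 61. Over all genes, 13.2% were called up and 30.4% down in the Hep3B pair, and 4.19% and 4.15% in the Huh7 pair. The counts of each list below are to be read beside these shares. Genes of these lists beyond the members and the naming rule are named here after their values were seen. With library totals, carriers and enzymes that feed the cycle had 0 up and 1 down of 9 in each pair. In the Hep3B pair this was CA5B, a mitochondrial carbonic anhydrase with 12 and 4 counts (uncalled with TMM, at -1.56, and with GC and length trends removed, at -0.87), and in the Huh7 pair it was SLC25A15, the mitochondrial ornithine carrier, at 1057 counts in Huh7 and 431 in Huh7-C (log2 fold-change -1.23, SE 0.08). SLC25A15 had 60 counts in Hep3B and 96 in Hep3B-C, at 20.7 CPM in both. In the Hep3B pair the calls of these carriers and enzymes depended on the scaling. They were 3 up and 0 down with TMM, and 3 up and 1 down (SIRT3, -1.22) with GC and length trends removed. The 3 called up in both settings were SLC25A13 (1.40 and 1.40), SLC25A12 (2.47 and 2.69, from 3 and 20 counts) and GLUD1 (1.28 and 1.10).

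Of the enzymes that use glutamine, 4 were called up and 1 down of 10 in the Hep3B pair, and 3 were called up and 0 down of 11 in the Huh7 pair. CAD, which begins pyrimidine synthesis, stood at 2.26 on the log2 scale in the Hep3B pair (SE 0.10, 247 and 1897 counts) and at 1.27 in the Huh7 pair (SE 0.07, 640 and 1479 counts). PFAS, an enzyme of purine synthesis, had 141 and 655 counts in the Hep3B pair (1.53, SE 0.13) and 263 and 598 in the Huh7 pair (1.25, SE 0.11). Both were thus up-regulated in each HCSC line. The others called up were ASNS (asparagine synthesis, 1.83) and CTPS1 (CTP synthesis, 1.46) in Hep3B-C, and PPAT (first step of purine synthesis, 32 and 71 counts) in Huh7-C.

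Among 19 genes of arginine, ornithine and proline use, 8 were called up and 2 down in the Hep3B pair and 2 up and 0 down in the Huh7 pair. ODC1, the rate-limiting enzyme of polyamine synthesis from ornithine, went up by 2.63 on the log2 scale (SE 0.10) in Hep3B-C, with 233 and 2324 counts, and by 1.74 (SE 0.04) in Huh7-C, with 1615 and 5142 counts. PRODH, which degrades proline, likewise went up by 1.79 (SE 0.57, from 7 to 41 counts) and by 4.53 (SE 0.70, from 4 to 99 counts). GAMT (creatine synthesis), SRM (spermidine synthesis) and PYCR1 (proline synthesis) rose most in Hep3B-C among listed genes with at least 50 counts, with log2 fold-changes of 3.45, 3.44 and 3.15, and were at -0.01, 0.52 and 0.03 in the Huh7 pair, where they were not called. With GC and length trends removed they stood at 1.32, 1.47 and 1.62 in Hep3B-C, below ODC1 at 2.69. The 2 called down in Hep3B-C were AZIN1, an antizyme inhibitor, at -1.42, and SMS, spermine synthase, at -1.06. Neither was called with TMM (-0.82 and -0.47), and with GC and length trends removed AZIN1 (-0.33) was uncalled as well.

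Transporters of glutamine and arginine were called in both directions, with 4 up and 5 down of 14 in the Hep3B pair and 1 up and 2 down of 14 in the Huh7 pair. In the Hep3B pair 13.2% of all genes were called up and 30.4% down. SLC7A5, the catalytic chain of a large neutral amino acid exchanger, went up by 2.96 on the log2 scale (SE 0.13) in Hep3B-C, with 124 and 1548 counts, and by 1.10 (SE 0.06) in Huh7-C, with 879 and 1797 counts. SLC1A2, a glutamate transporter, fell from 97 to 8 counts in Huh7-C (-3.45, SE 0.52) and had 5 and 4 counts in the Hep3B pair. SLC38A3, a glutamine transporter of liver and kidney, was called in opposite directions, at 2.78 in Hep3B-C (220 and 2424 counts) and -1.16 in Huh7-C (244 and 104 counts). The others called in Hep3B-C were SLC3A2, the partner chain of SLC7A5, at 2.96 and SLC1A5 at 2.11, and on the lower side SLC38A2 (-2.16), SLC38A1 (-1.63), SLC7A6 (-1.50), SLC38A4 (-1.14) and SLC7A2 (-1.04). With GC and length trends removed none of these last 5 was called, SLC7A6, SLC38A4 and SLC7A2 were also uncalled with TMM (-0.90, -0.55 and -0.45), and SLC1A5, at 0.85 with the trends removed, was uncalled. Of the 5 listed genes called up in both pairs, CAD, PFAS, PRODH, SLC7A5 and ODC1, the last kept both calls with GC and length trends removed. CAD and SLC7A5 then stood at 0.92 and 0.91 in the Huh7 pair, and PFAS and PRODH at 0.97 and 0.30 in the Hep3B pair, all uncalled.

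Aminotransferases, which pass nitrogen between amino acids, were called up in 5 of 8 cases in the Hep3B pair and in 0 of 8 in the Huh7 pair, with none called down. Those called were GOT1 (1.81), GOT2 (1.61), BCAT2 (1.40), GPT2 (1.32) and PSAT1 (1.21), of which BCAT2 (-0.34) and GPT2 (0.65) were not called with GC and length trends removed. Of 8 liver transcription factors of periportal genes, 2 were called up and 2 down in the Hep3B pair and 0 up and 2 down in the Huh7 pair. CEBPB (1.71) was up and FOXA1 (-1.71) was down in Hep3B-C, and of these FOXA1 was still called with both trends removed while CEBPB (-0.10) was not. The 2 in Huh7-C were KLF15, a regulator of amino acid catabolism, at -2.29 on the log2 scale (SE 0.37, 94 and 18 counts), and CEBPA, at -1.52 (SE 0.13, 462 and 154 counts). In the Hep3B pair KLF15 and CEBPA were uncalled, at -0.39 and 0.21. With GC and length trends removed both were called down there, at -1.70 and -1.34, and this list had 0 up and 3 down. NR3C1, the glucocorticoid receptor, was down in Hep3B-C at 108 and 37 counts (-2.21, SE 0.27), but stood at -0.58 and was uncalled with GC and length trends removed. Among 9 pericentral targets of Wnt signalling, 1 was called up and 3 down in the Hep3B pair and none in the Huh7 pair. The Hep3B counts were near the shares over all genes of that pair, 13.2% up and 30.4% down. LGR5, a receptor for R-spondins, fell from 202 to 48 counts (-2.74, SE 0.23) and TBX3, a transcription factor, from 117 to 34 (-2.45, SE 0.28) in Hep3B-C, in which GLUL, also a pericentral gene, stood at 0.95. The remaining calls were SP5, up from 4 to 30 counts, and RNF43, down from 114 to 85 counts (-1.10). SP5 was uncalled with GC and length trends removed (0.32). RNF43 was uncalled with TMM (-0.51) but called with the trends removed (-1.46). With those trends removed the pericentral list had 0 up and 4 down in the Hep3B pair, with NKD1 (-2.07) called in addition.

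**Figure D5:**
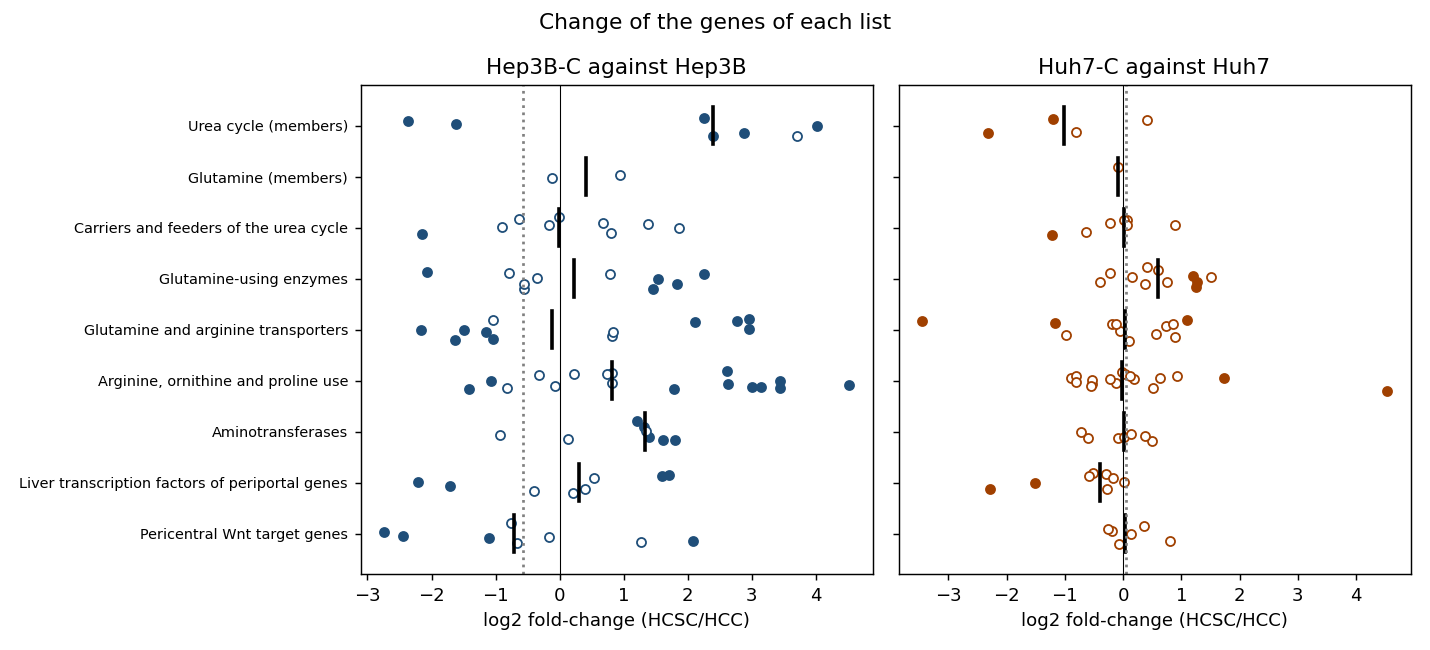
Log2 fold-change (HCSC/HCC) of each gene with at least 10 counts in a library of the pair, by list. Filled points were called, open points were not, black bars are list medians, and the dotted line is the median of all genes (-0.58 in the Hep3B pair and 0.06 in the Huh7 pair). Aminotransferases had a median of 1.34 in the Hep3B pair and 0.02 in the Huh7 pair.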

How the data were processed

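RNA of 4 cell lines was sequenced on an Illumina Genome Analyzer II, with 1 library per line. The authors mapped reads with NextGENe to NCBI Build 36.1 and deposited a gene's raw read counts as whole numbers beside its length. Strand, annotation and treatment of reads with several matches are not given in the sources used here. Genes without a read in a pair were not listed. Genes without a symbol stayed in library totals.

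Here, counts were scaled to the total gene count (CPM) or also to gene length (RPKM). Total gene counts were 2896418 (Hep3B), 4641927 (Hep3B-C), 4537510 (Huh7) and 4333808 (Huh7-C). Intervals are 95% Poisson limits, or exact limits of a ratio of counts, and cover counting error only. Those drawn around log2 fold-changes are approximate and come from the counting SE. Log2 fold-changes (HCSC/HCC) of the pairs had 0.5 added to each count, whereas ratios given as fold values, and their intervals, had none added. Pairs were compared by the Audic-Claverie test with doubled tail, adjusted by Benjamini-Hochberg over all genes of the pair, and called at FDR of at most 0.01 and absolute log2 fold-change of at least 1. HCSC and HCC were compared with edgeR 4.0.16 (quasi-likelihood, TMM, filterByExpr) with the parental line, which the labels give, as a block. Pairing was by parental line, and blocking lowered the BCV from 0.754 to 0.514. Genes unlisted in a pair were taken as 0. Software was R 4.3.3, DESeq2 1.42.0, statsmodels 0.14.6 and scipy 1.17.1 under Python 3.11.15. Both tests were run on simulated counts. For the pairs these held counting noise only, and for the joint fit their BCV was set well below the 0.514 of the data. Neither run therefore shows how the tests behave at the spread between these cultures.

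Alternatives were TMM or DESeq2 size factors, a filter of at least 10 counts, 5 added counts, an exact binomial test, an assumed BCV of 0.4, and trends of length, or of GC content and length (lowess, fraction 0.3), removed. For the joint fit they were no block, no filter, DESeq2 and each library or pair left out. GC content and pseudogenes came from GENCODE 29 and promoters from RefSeq (GRCh38.p14, 9 of 9 members matched), as annotation only. Named were all members, SLC25A15, listed genes called alike in both pairs, and the 3 most up- and 3 most down-regulated listed genes of each pair with at least 50 counts. Some genes that the rule or the lists hold are not reported here. Like genes were the 3 nearest in both log2 fold-changes. Members and lists were chosen with earlier results of these data known.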

Additional observations from a re-analysis of the deposited data

Results flagged for a closer look

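ASL and ASS1 had opposite signs in the 2 pairs, each past an FDR of 0.01 in the Audic-Claverie test. The log2 fold-change of ASL was higher in the Hep3B pair than in the Huh7 pair by 3.61, with values of 2.40 and -1.21, and both were calls. For ASS1 the difference was 3.06, with values of 2.25 and -0.81, of which the second did not reach the fold limit. With GC and length trends removed these differences were 2.12 for ASL and 1.58 for ASS1. With 1 library per culture, the difference between the parental lines was not tested.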

How the results depend on the processing

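Of 150 values of the members in the pairs under the alternatives, 130 kept their direction and side of the threshold, 11 lost a call, 7 gained one and 2 reversed. In the joint fit 57 of 67 kept their direction and 10 reversed.

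In the Hep3B pair, genes called up numbered 2043 in the main setting used here (library totals). They numbered 3348 with TMM, 3549 with DESeq2 size factors, 690 with GC and length trends removed and 62 with a BCV of 0.4. Genes called down numbered 4708 in the main setting, 2799 with TMM, 2553 with DESeq2 size factors, 1913 with GC and length trends removed and the median set to 0 (chosen after seeing the data), and 169 with the BCV. Members called up numbered 2 with GC and length trends removed and 1 with the BCV, and members called down 1 with DESeq2 size factors and 0 with the BCV. GLS2 reversed to 0.47 with TMM and 0.56 with DESeq2 size factors.

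In the Huh7 pair, 620 genes up became 383 with both trends removed and the median set to 0, and 13 with the BCV, which also left 12 genes down and 0 members down.

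In the joint fit, 4 genes up and 5 down became 0 and 0 with no replicate block, and down calls were 8 with no filter and 9 with DESeq2. No member was called under any of these. ASS1 reversed to -0.17 with no replicate block. Leaving out each library in turn, without the block, gave 0 to 11 genes up and 0 to 18 down. The joint log2 fold-change then ranged from -1.08 to 2.95 for ASS1, from -0.70 to 2.05 for ASL, from -5.67 to 1.28 for ARG1, from -0.77 to 1.79 for GLUL and from -0.66 to 1.31 for GLS2. For CPS1 it was 0.06 without Hep3B and 4.85 without Huh7, and for ARG2 it was -2.80 without Hep3B and -0.55 without Huh7. With the Hep3B pair left out, ASS1 reversed to -0.86, ASL to -1.26 and GLUL to -0.14, and GLS2 had no value, since it had no counts in the Huh7 pair. The cause of these changes was not tested. Depth limits OTC, NAGS, GLS2 and, in the Huh7 cultures, ARG1.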
